A study of Mus musculus with 36 samples.

Results

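The genes described here are 10 members of the BCL2 family that decide survival or death at the mitochondrion, followed in mouse blood 7 days after x-ray, neutron or mixed field exposure. They were chosen by gene symbol, as every array probe, controls excluded, whose annotated gene was Bcl2, Bcl2l1, Mcl1, Bcl2l11, Bax, Bak1, Bid, Bad, Bik or Pmaip1. That gave 14 probes, of 31093 gene names on the array. The animals were male C57BL/6J mice of 8 to 10 weeks at exposure, with 6 mice in each of 6 groups and 1 single-colour array per mouse of RNA from whole blood drawn at day 7. Controls were sham-irradiated. The other groups received 3 Gy of x-rays, a mixed field of x-rays and neutrons with a total of 3 Gy in which neutrons gave 5%, 15% or 25% of the dose (0.15, 0.45 and 0.75 Gy), or 0.75 Gy from the neutron beam without added x-rays. That beam also carries some photons, so the neutron group is not free of them. The neutron group and the 25% mixed field share the neutron dose and differ in the total dose.

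BCL2 family proteins act at the outer membrane of the mitochondrion. The survival members BCL2, BCL-XL (encoded by Bcl2l1) and MCL1 hold in check the effectors BAX and BAK (Bak1), which otherwise open pores in that membrane and release cytochrome c, the signal that switches on caspases. The BH3-only members, BIM (Bcl2l11), BID, BAD, BIK and NOXA (Pmaip1), are sensors that bind the survival proteins or turn on the effectors. In blood, lymphocytes are known to depend on BCL2 and MCL1, and maturing red cells on BCL-XL. Bax, Pmaip1 and Bbc3 are textbook targets of p53, the transcription factor that DNA damage activates.

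The arrays measured transcript levels with probes of 60 bases, and where a probe lies decides which part of the transcript it reports. The parts of the probes that the results turn on are shown here, in lower case with the marked bases in capitals and with their position on the mouse build mm9. The Bcl2 probe lies at chr1:108608970-108609029 on the minus strand, and its capitals are 5 codons of the BH1 homology domain, which is shared by the survival members.
Bcl2: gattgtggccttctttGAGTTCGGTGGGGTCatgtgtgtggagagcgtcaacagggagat
Bcl2l1 had 2 probes that lay 48781 bases apart on chromosome 2. The first, at chr2:152655185-152655244 on the minus strand, could be read through without a stop codon in 1 of its 3 frames, and its capitals are 6 codons in that frame. It is called the coding probe below.
Bcl2l1, coding probe: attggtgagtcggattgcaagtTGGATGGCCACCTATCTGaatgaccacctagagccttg
The other lay at chr2:152606404-152606463 on the minus strand and held an AATAAA polyadenylation signal, marked in capitals in the stretch of 30 bases shown, as is found at the 3′ end of a transcript.
Bcl2l1, 3′ end probe: gtgcagttcagtAATAAAtggtgtctgtga
Bad, too, had 2 probes, whose results differed. The coding probe, for which the array design gave no position, held an ATG, in capitals, in an open reading frame.
Bad, coding probe: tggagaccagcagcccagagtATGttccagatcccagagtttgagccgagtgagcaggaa
The other Bad probe lay at chr19:7026323-7026382 on the plus strand, and again held the AATAAA signal in the 30 bases shown.
Bad, 3′ end probe: aacgtgctttatAATAAAgcctgcgcatgt
No genome of this build was used, so exon borders and splice forms were not assigned to any probe.

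Levels are given as log2 of the processed intensity minus the log2 median of the same array, so that 0 is an array's median probe. A level may be compared between groups for 1 probe, and not between probes. A gene was called differentially expressed where its p by limma was under 0.001 and its p after Benjamini-Hochberg adjustment was under 0.05. Of the 14 probes, 12 probes of 9 genes stood above background on over 75% of the 36 arrays. Genes were then tested on their brightest probe that varied by at least 1.5-fold from its median on at least 8 arrays, which left 7 members among 15085 genes. Bax and Bid did not vary that much, nor did the brighter probe of Bad, so for Bad the coding probe was the one tested. Probes outside that set were tested among all 21484 probes above background, and such values are named as from the fit of all probes. No member was saturated. The number of probes well above background ran from 15569 to 21294 over the arrays, and from 19492 to 20724 in controls, 16548 to 19307 after x-rays and 16444 to 18989 after neutrons. Arrays were scanned in 4 sessions on 10 slides, and all 12 arrays of the 25% mixed field and the neutron group were in a session of their own, so for these 2 groups session and exposure cannot be told apart. The last session held 1 array each of controls, x-rays, 5% and 15%. All other arrays of 5% and 15% were in a session without controls or x-rays. For every gene, differences of 5% and 15% from controls or x-rays therefore mix exposure with session, apart from those single arrays.

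Compared with controls, 2 of the 7 tested members were differentially expressed after x-rays, 1 after each mixed field and 3 after neutrons. Bcl2l1 was higher after all 5 exposures, Mcl1 was lower after x-rays, and Bcl2 and Bad were lower after neutrons. Over all genes, 29.8% were called after x-rays, 23.1% after the 5% mixed field, 29.1% after 15%, 24.8% after 25% and 36.6% after neutrons, so the counts of 1 to 3 of 7 do not set these genes apart as a group. Without Bcl2l11, whose probe was near background, the median log2 fold-change of the other 6 was -0.30 after x-rays, -0.41 after 5%, -0.34 after 15%, -0.18 after 25% and -0.13 after neutrons, where that of all genes was -0.11, -0.08, -0.02, -0.12 and -0.12. The members went different ways, as the plot of fold-changes shows, and are described by role. Overlap between groups is described for the members alone, and the share of all genes without overlap was not counted. Against controls, 52.1% to 64.1% of all genes had an unadjusted p below 0.05 by limma.

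**Figure D1:**
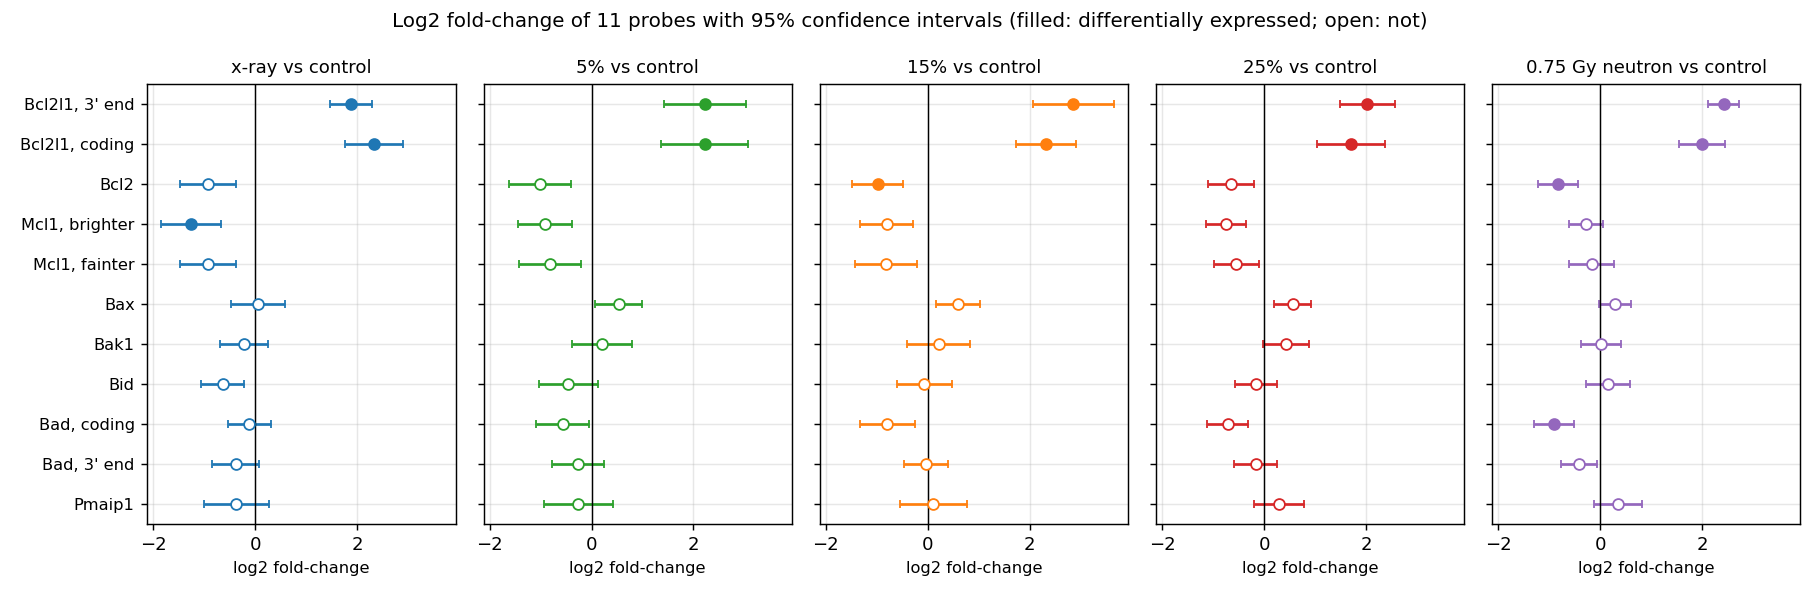
Log2 fold-change of 11 probes of 8 members against controls (x axis) for each of the 5 exposures (panels), with 95% confidence intervals, in the fit of all probes above background; filled points passed the test and open points did not. Both Bcl2l1 probes lie to the right of 0 in every panel, from 1.71 to 2.85, while Bcl2 and Mcl1 lie to the left, and in this fit Bcl2 is filled after 15% as well as after neutrons.

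Bcl2l1 encodes BCL-XL, the survival protein that maturing red cells rely on. Its 3′ end probe lay between 11.27 and 11.97 in the 6 controls, with a median of 11.47. After x-rays the levels ran from 12.81 to 13.63 with a median of 13.51, and after neutrons from 13.84 to 14.23 with a median of 13.91. The mixed fields spread more widely, from 12.41 to 14.69 with a median of 14.25 at 5%, from 12.63 to 15.34 with a median of 14.54 at 15%, and from 13.13 to 14.64 with a median of 13.41 at 25%. All 30 exposed arrays were above every control, and no exposed group overlapped the controls. The log2 fold-change was 1.88 ± 0.20 (SE, n = 6) after x-rays, which is 3.67-fold (adjusted p = 1.02e-05, limma). It was 2.23 ± 0.38 at 5% (adjusted p = 0.000482), 2.85 ± 0.38 at 15% (adjusted p = 5.09e-05) and 2.03 ± 0.26 at 25% (adjusted p = 4.4e-05), all by limma, or 4.68-fold, 7.23-fold and 4.07-fold. After neutrons it was 2.42 ± 0.14, or 5.34-fold (adjusted p = 8.35e-08, limma). The rise was not ordered by the neutron share of the mixed field.

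The coding probe of Bcl2l1 gave the same direction. Its levels were 4.68 to 6.17 in controls with a median of 5.53, 7.11 to 8.26 after x-rays with a median of 7.95, and 7.25 to 7.74 after neutrons with a median of 7.46. In the mixed fields they were 6.31 to 8.66 at 5%, 6.94 to 8.35 at 15% and 6.55 to 8.38 at 25%, with medians of 8.07, 7.91 and 7.11. Again 30 of 30 exposed arrays were above every control. In the fit of all probes the log2 fold-changes were 2.33, 2.22, 2.32, 1.71 and 2.00 for x-rays, 5%, 15%, 25% and neutrons, and all 5 were called. Over all probes the share called was 27.6% after x-rays, 21.3% after 5%, 26.5% after 15%, 23% after 25% and 33.6% after neutrons. Both probes were thus higher, while the order of the groups differed between them: 15% had the highest median at the 3′ end and 5% at the coding probe.

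**Figure D2:**
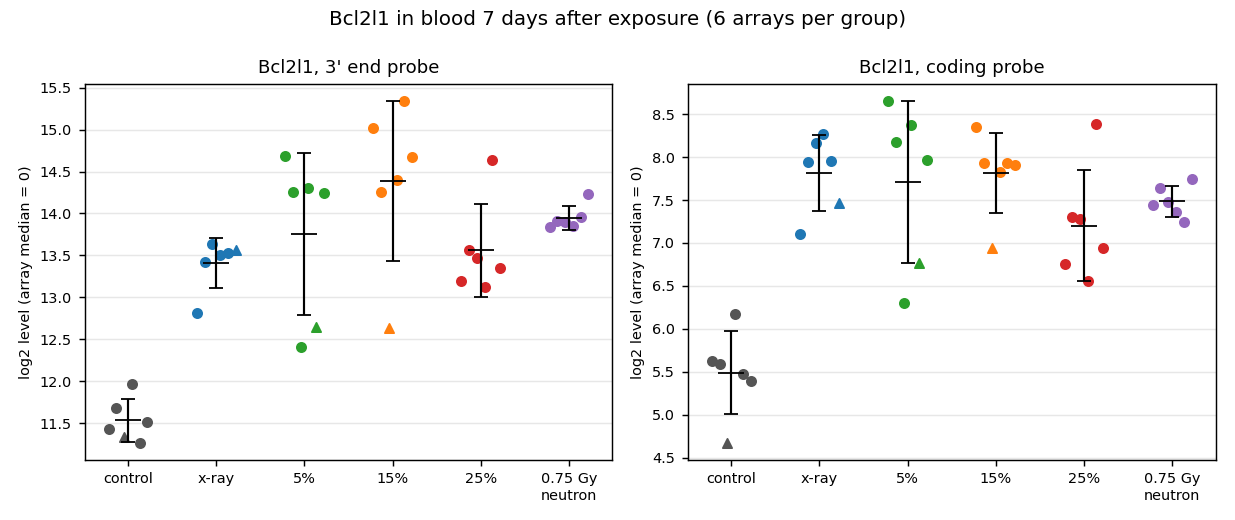
Log2 levels of the 2 Bcl2l1 probes on each array (y axis, array median = 0) in the 6 groups (x axis); each point is 1 mouse, triangles are arrays of the last scan session, and bars give the mean and SD. On both probes every exposed array is above the highest control, at 11.97 for the 3′ end and 6.17 for the coding probe.

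The size of the Bcl2l1 rise depended on scaling and on scan session. Quantile normalization reduced the log2 fold-change of the 3′ end probe to 1.18, 1.502, 1.80, 1.48 and 1.40 in the same order of groups, all still called by limma. Within the first session, which held 5 control and 5 x-ray arrays, the x-ray change was 1.80 and was called. For 5% and 15%, a comparison with controls inside a session rests on the 1 array of each in the last session. There the 3′ end probe was higher than the control by 1.31 and 1.30, and with session as a block neither was called (adjusted p = 0.492 and 0.299, limma). The coding probe differed by 2.10 and 2.27 on the same arrays. Leaving out any single array left Bcl2l1 called against controls in all 5 exposures.

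Markers of red cells were higher in the same groups, and those of platelets in some of them. Of 7 red-cell markers tested, 5 rose after x-rays, 6 after 5%, 6 after 15%, 4 after 25% and 7 after neutrons, and none fell. Ahsp, the chaperone of alpha-globin, rose by 3.99, 4.59, 4.93, 4.86 and 2.59 on the log2 scale. The mean level of the 7 ran from 8.002 to 8.72 in controls, 9.78 to 10.58 after x-rays, 9.32 to 10.92 at 5%, 9.72 to 11.44 at 15%, 9.70 to 11.29 at 25% and 9.93 to 10.36 after neutrons, with no overlap with controls. Within groups, the arrays with more red-cell signal were those with more Bcl2l1: after the group means were taken out, Pearson's r over the 36 arrays was 0.94 for the 3′ end probe (Spearman's rho 0.87, and r = 0.92 without the 2 arrays farthest from the median) and 0.87 for the coding probe. Platelet markers went with Bcl2l1 as well, at r = 0.72 for the 3′ end probe (rho 0.66) and 0.58 for the coding probe. Of 6 platelet markers, Gp1bb, Pf4 and Gp6 rose at 15% and 25% and Pf4 after neutrons, and 0 were called after x-rays or 5%, where 4 and 3 were higher at an unadjusted p below 0.05 by limma. The median log2 fold-change of the 6 was 0.70, 0.65, 1.28, 1.15 and 0.14 in the same order of groups. These correlations are descriptions over arrays that share scaling and RNA quality, among 84 such relations computed. In whole blood, more cells of a type and more RNA per cell cannot be told apart, and the part of red-cell and platelet content in the Bcl2l1 rise was not tested. The genes whose within-group pattern was most like Bcl2l1 were Dcaf12 (r = 0.985, rho 0.972), Memo1 (r = 0.972) and Vangl1 (r = 0.968).

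**Figure D3:**
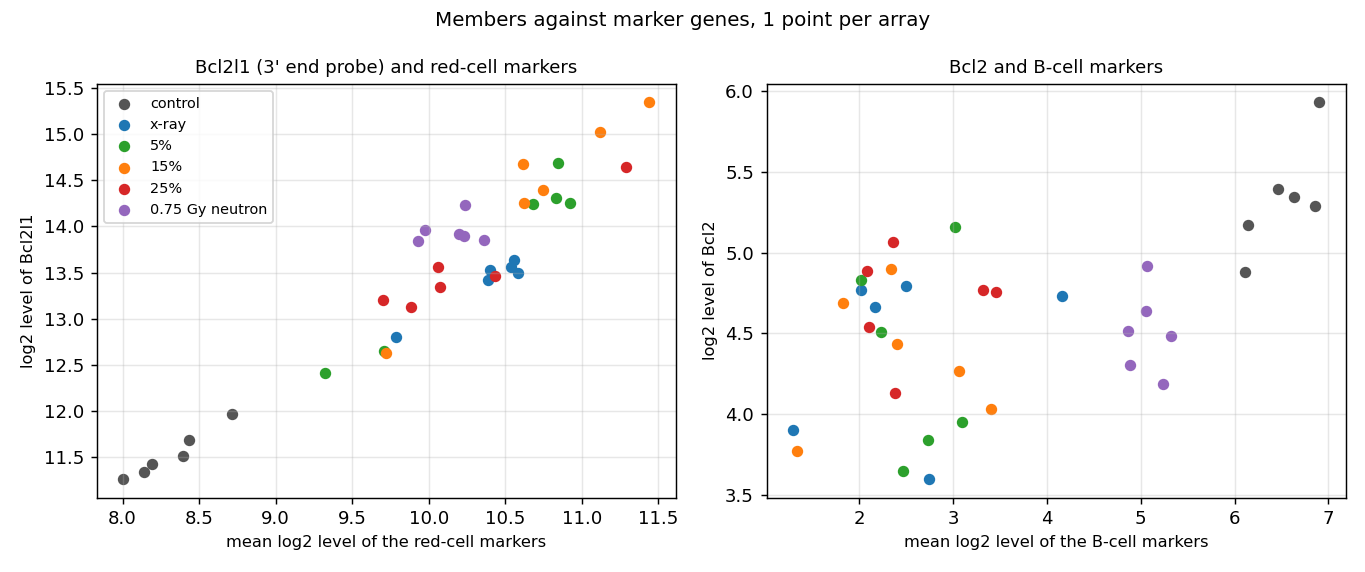
Left, the log2 level of the Bcl2l1 3′ end probe (y axis) against the mean log2 level of 7 red-cell markers (x axis); right, Bcl2 (y axis) against the mean of 8 B-cell markers (x axis), with 1 point per array coloured by group. Controls form a group of their own at the lower left of the red-cell panel, while in the B-cell panel the neutron arrays lie at 4.87 to 5.32, between the controls and the other exposures.

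Bcl2, the founding survival gene of the family, went the other way. Its levels were 4.88 to 5.93 in controls with a median of 5.31, 3.60 to 4.79 after x-rays with a median of 4.70, and 4.18 to 4.92 after neutrons with a median of 4.498. In the mixed fields they ran from 3.65 to 5.16 at 5%, 3.77 to 4.90 at 15% and 4.13 to 5.06 at 25%, with medians of 4.23, 4.35 and 4.76. The x-ray group did not overlap the controls, the other 4 did, and 25 of 30 exposed arrays were below every control. Bcl2 fell by 0.83 on the log2 scale after neutrons (95% interval -1.22 to -0.43, adjusted p = 0.00166, limma). Elsewhere the difference was of like size without passing both thresholds, at -0.93 after x-rays (adjusted p = 0.00861), -1.01 at 5% (adjusted p = 0.0118), -0.99 at 15% (adjusted p = 0.00428) and -0.64 at 25% (adjusted p = 0.028), all by limma. In the fit of all probes 15% was called too, with the same fold-change. The neutron call was kept in 5 of the 12 fits that left out 1 array, with log2 fold-changes of -0.92 to -0.71, and lost without control replicate 3, 5 or 6 or neutron replicate 2, 3, 4 or 6. It was also lost with quantile normalization, at -0.66, without the last session, at -0.84, with slide as a random effect, at -0.81, and in 1 model over all 36 arrays or with the replicate block, where the fold-change was the same. It was called in 13 of the 26 alternatives run.

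B-cell markers were lower in these groups as well. All 8 B-cell markers fell after x-rays and after each mixed field and 7 fell after neutrons, with Cd79a, a part of the B-cell receptor, at log2 fold-changes of -5.05 after x-rays and -1.27 after neutrons. Their mean level was 6.12 to 6.90 in controls, 1.29 to 4.16 after x-rays, 2.02 to 3.10 at 5%, 1.34 to 3.40 at 15%, 2.08 to 3.46 at 25% and 4.87 to 5.32 after neutrons. Of the 8 B-cell markers, 5 were called higher after neutrons than after x-rays. The Bcl2 difference from controls was -0.83 after neutrons and -0.93 after x-rays, and neutrons against x-rays gave 0.10 for Bcl2 (95% interval -0.44 to 0.63). Of 8 T-cell markers, 1 fell after x-rays, 3 after 5%, 3 after 15%, 2 after 25% and 0 after neutrons. At an unadjusted p below 0.05 by limma, 5, 7, 5, 4 and 3 were lower in the same order and Cd4 was higher after x-rays, 15% and neutrons, where 63.9%, 52.1%, 55.9%, 54.2% and 64.1% of all genes had such a p. Their mean was 6.17 to 6.93 in controls, 5.31 to 6.13 after x-rays and 5.79 to 6.61 after neutrons. Within groups Bcl2 followed the T-cell and NK-cell markers most (r = 0.74 and 0.77). It followed the monocyte and neutrophil markers less (r = 0.62 and 0.43), and the B-cell markers at r = 0.14. Bid (r = 0.83 and 0.75) and Pmaip1 (r = 0.74 and 0.69) went with the T-cell and NK-cell markers as well. The part of cell make-up in the Bcl2 levels was not tested. The closest genes by within-group pattern were Gpr132 (r = 0.924), Evl (r = 0.903) and Gpr171 (r = 0.900).

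Mcl1 encodes a short-lived survival protein. Its brighter probe, at chr3:95466855-95466914, lay between 8.79 and 9.55 in controls with a median of 9.12, and between 6.97 and 8.72 after x-rays with a median of 7.97. The mixed fields gave 7.60 to 8.78 at 5%, 7.93 to 9.27 at 15% and 7.97 to 8.58 at 25%, with medians of 8.38, 8.29 and 8.53. The neutron arrays ran from 8.56 to 9.14, with a median of 8.93. X-rays, 5% and 25% did not overlap the controls, while 5 of the 6 neutron arrays lay within the range of the controls. Mcl1 fell by 1.26 on the log2 scale after x-rays (95% interval -1.85 to -0.66, adjusted p = 0.00211, limma). It differed by -0.91 at 5% (adjusted p = 0.00973), -0.81 at 15% (adjusted p = 0.0148), -0.75 at 25% (adjusted p = 0.00595) and -0.29 after neutrons (adjusted p = 0.132), none past both thresholds in limma. The fainter probe, 1312 bases upstream, gave -0.93, -0.82, -0.82, -0.54 and -0.17 for the same 5 exposures, and none was called.

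The x-ray call of Mcl1 sits close to the threshold. It was lost in 8 of the 12 fits that left out 1 array (any of control replicates 2 to 6, or x-ray replicate 2, 3 or 4), at log2 fold-changes of -1.41 to -1.06 over the 12. It was lost as well without the last session (-1.37, adjusted p = 0.00492, limma), with centring on the 75th percentile (-0.91) and with slide as a block (-1.04, adjusted p = 0.0839, limma). The direction was the same in every one. Within groups Mcl1 went with the markers of several cell types, at r = 0.78 for monocyte, 0.59 for NK-cell, 0.56 for T-cell and 0.48 for neutrophil markers. Pmaip1 (r = 0.76), Bax (r = 0.65), Bak1 (r = 0.64), Bcl2 (r = 0.62) and Bid (r = 0.61) also went with the monocyte markers. The gene nearest to Mcl1 in pattern with a usual symbol was Cic (r = 0.937). Of 6 monocyte markers, none passed the test after x-rays or the mixed fields, where 0 to 1 had an unadjusted p below 0.05 by limma, and Cx3cr1 and Csf1r were higher after neutrons, by 1.30 and 0.82.

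**Figure D4:**
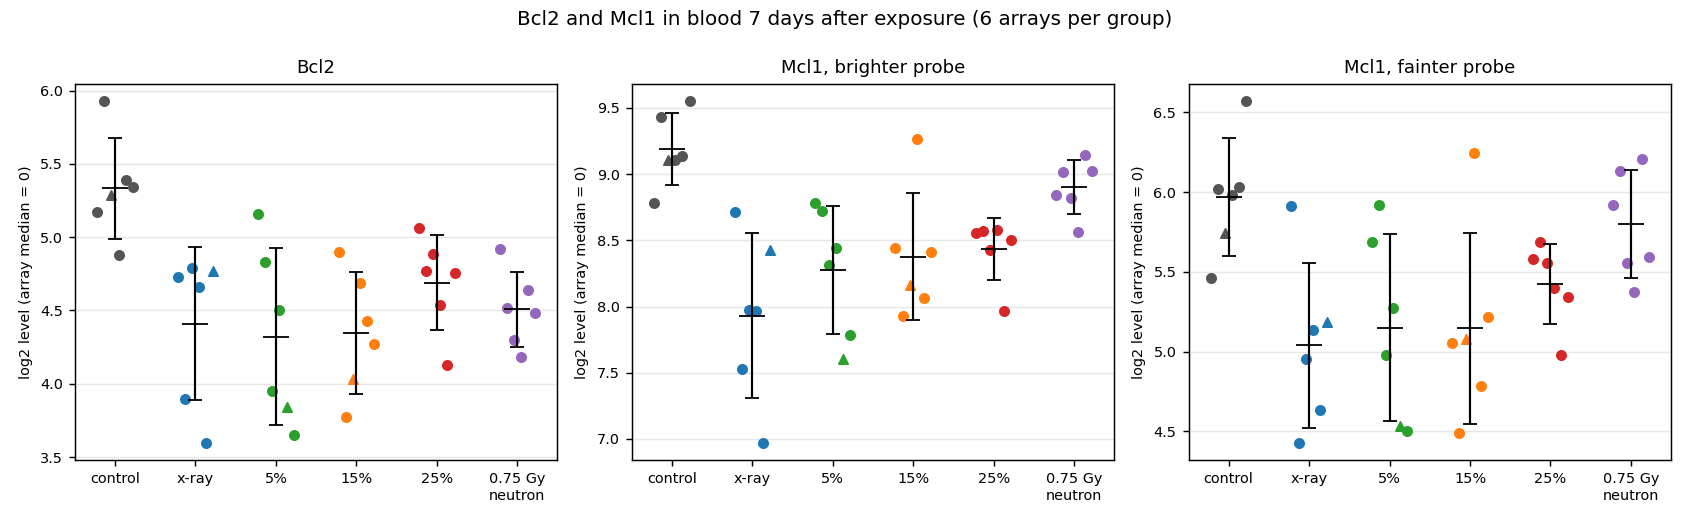
Log2 levels (y axis, array median = 0) of Bcl2 and of the 2 Mcl1 probes on each array in the 6 groups (x axis); points are mice, triangles are arrays of the last scan session, and bars give the mean and SD. Bcl2 is low in all 5 exposed groups, with medians of 4.23 to 4.76 against 5.31 in controls, whereas Mcl1 on its brighter probe has a neutron median of 8.93 next to 9.12 in controls.

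Among the effectors, neither gene passed the test. Bax lay between 5.71 and 6.48 in controls with a median of 6.24, and between 5.51 and 6.76 after x-rays with a median of 6.41. In the mixed fields the medians were 6.85, 6.86 and 6.75 for 5%, 15% and 25%, and after neutrons 6.51. The 25% arrays, at 6.62 to 6.96, were all above the controls, and 22 of 30 exposed arrays were. In the fit of all probes the log2 fold-change of Bax was 0.06 after x-rays (95% interval -0.48 to 0.59), 0.53 at 5%, 0.60 at 15%, 0.57 at 25% and 0.29 after neutrons, with adjusted p of 0.861, 0.0579, 0.0259, 0.0155 and 0.107 (limma). Bak1, the partner effector, had group medians of 5.70 to 6.28 and all groups overlapped. Its differences from controls ran from -0.22 after x-rays to 0.42 at 25% (95% interval -0.05 to 0.89), and none was called.

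Of the BH3-only genes, Bad changed and Bid, Pmaip1 and Bcl2l11 did not pass the test. Bad couples growth-factor signalling to the survival proteins. Its coding probe gave 1.30 to 1.89 in controls with a median of 1.61, 1.03 to 1.93 after x-rays with a median of 1.44, and 0.15 to 1.02 after neutrons with a median of 0.83. In the mixed fields it ran from 0.27 to 1.52, 0.31 to 1.63 and 0.37 to 1.14 with medians of 1.14, 0.70 and 0.96. The 25% and neutron arrays were all below the controls, and the x-ray arrays overlapped them. Bad fell by 0.91 on the log2 scale on this probe after neutrons (adjusted p = 0.000969, limma), and differed by -0.12, -0.57, -0.79 and -0.71 after x-rays, 5%, 15% and 25% (adjusted p = 0.638, 0.0809, 0.0198 and 0.0098, limma). This probe is faint, well above background on 30 of 36 arrays and on 4 of 6 neutron arrays. Every neutron array and every x-ray array had fewer probes well above background than any control. The part of this in the Bad difference was not tested.

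The 3′ end probe of Bad, which was well above background on all 36 arrays, was lower after neutrons as well, by less and without passing the test. It lay at 5.41 to 5.99 in controls and 4.85 to 5.68 after neutrons, and the groups overlapped. Its log2 fold-changes were -0.39, -0.26, -0.04, -0.17 and -0.42 for x-rays, 5%, 15%, 25% and neutrons, and none was called. Within groups the Bad probes correlated weakly with each other (r = 0.35), and both ran against the red-cell markers (r = -0.56 for the coding and -0.58 for the 3′ end probe). The call of Bad after neutrons thus rests on its coding probe, where the fall was called in 12 of 12 fits that left out 1 array. Over all alternatives run, Bad was called after neutrons in 22 of 27. It was not called with centring on the 75th percentile, at -0.64, or on probes well above background on all arrays. The call was also lost with normexp background correction, with the replicate block, and with no fold filter, where the 3′ end probe stood for the gene.

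Bid, which links death receptors to the mitochondrion, lay between 4.61 and 5.62 in controls with a median of 5.08, and between 4.08 and 4.72 after x-rays with a median of 4.46. The medians were 4.62 at 5%, 5.12 at 15%, 4.86 at 25% and 5.22 after neutrons. In the fit of all probes the difference from controls was -0.64 after x-rays (adjusted p = 0.0133, limma), -0.45 at 5%, -0.07 at 15%, -0.16 at 25% and 0.15 after neutrons, and none was called. Pmaip1, the p53 target that encodes NOXA, had medians of 4.13 in controls, 3.99 after x-rays, 3.70 at 5%, 4.28 at 15%, 4.399 at 25% and 4.41 after neutrons. Its differences ran from -0.37 after x-rays to 0.35 after neutrons (95% interval -0.12 to 0.82), and none was called. Bcl2l11, which encodes BIM, was near the floor: its tested probe was well above background on 2 of 36 arrays and its second probe on 0. Bik was well above background on 6 arrays and was not tested. No level is given for these last 2 genes.

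**Figure D5:**
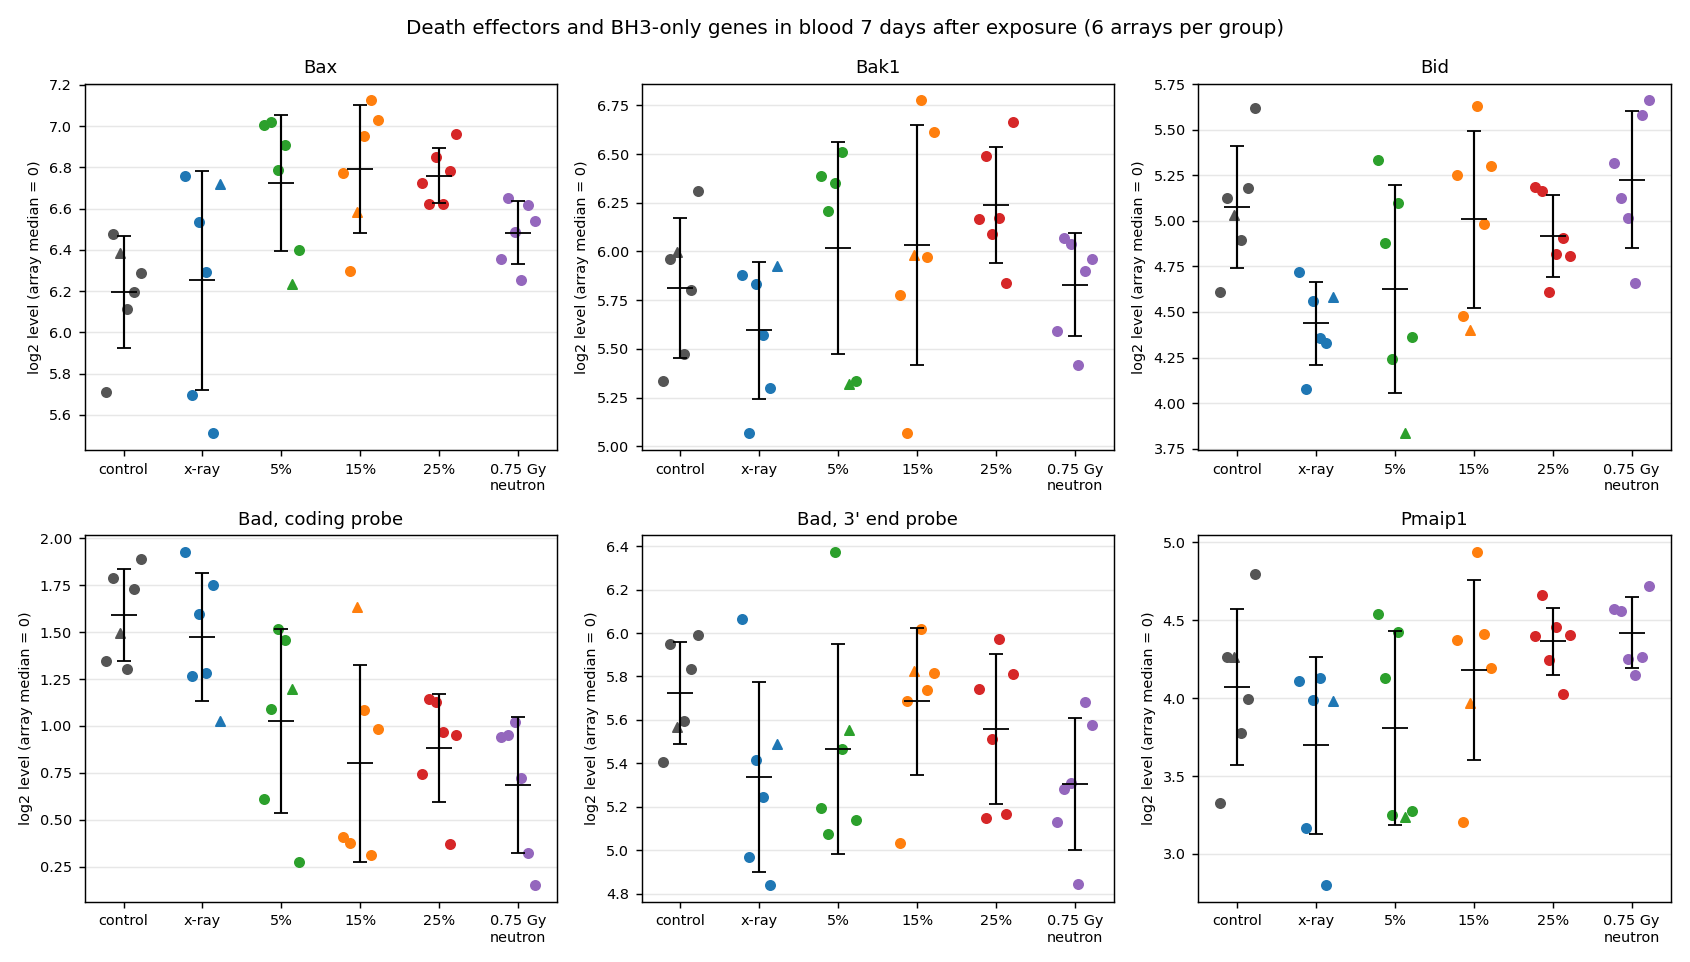
Log2 levels (y axis, array median = 0) of Bax, Bak1, Bid, the 2 Bad probes and Pmaip1 on each array in the 6 groups (x axis); points are mice, triangles are arrays of the last scan session, and bars give the mean and SD. The coding probe of Bad falls from a median of 1.61 in controls to 0.83 after neutrons with no overlap, while the 3′ end probe of the same gene overlaps in every group.

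The exposures were then compared with each other. They differ in radiation quality and, for the neutron group, in total dose as well. No member was called in any of these comparisons by limma, nor by the random-variance test of the study's methods. For 5% against x-rays 0 of 7 members were called, 0 had an unadjusted p below 0.05, and the share called over all genes was 0% as well, with 3508 genes, or 23.3%, at an unadjusted p below 0.05. For 15% against x-rays it was 0 of 7 beside 4.09% of all genes, with 2 members, Bcl2l1 and Bad, at an unadjusted p below 0.05 beside 28.1% of all genes. For 25% against x-rays it was 0 of 7 beside 2.61%, with 3 members, Bad, Bak1 and Pmaip1, at an unadjusted p below 0.05 beside 29.4%. For neutrons against x-rays it was 0 of 7 beside 12.9%, with 4 members below 0.05 beside 40.1%. For neutrons against 25% it was 0 of 7 beside 11.4%, with Mcl1 alone below 0.05 beside 39.6%. The x-ray and neutron groups share no scan session and differ in dose, at 3 Gy of x-rays against 0.75 Gy of neutrons. Radiation quality, dose and session therefore cannot be told apart here.

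Among these comparisons, Mcl1, Bid and Pmaip1 had their widest gap between neutrons and x-rays. Mcl1 was 0.97 higher on the log2 scale after neutrons than after x-rays (95% interval 0.39 to 1.55, adjusted p = 0.0173, limma), with 5 of 6 neutron arrays above every x-ray array, and its fainter probe gave 0.76 (adjusted p = 0.0419). Bid was 0.79 higher in the fit of all probes (adjusted p = 0.012, limma), in which 11.8% of probes were called. Pmaip1 was 0.72 higher (adjusted p = 0.0505, limma), and its groups did not overlap. All missed at least 1 of the thresholds. Mcl1 passed them with centring on the 75th percentile, at 0.89, and in a model over all 36 arrays, at 0.97.

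The paired probes of Bcl2l1 and Bad parted in this comparison. The 3′ end probe of Bcl2l1 was 0.54 higher after neutrons than after x-rays (95% interval 0.14 to 0.94, adjusted p = 0.0428, limma) and the groups did not overlap (exact permutation p = 0.00216, two-sided, the smallest that 6 against 6 arrays allow). The coding probe was -0.33 by the same difference (95% interval -0.79 to 0.13). For Bad, the coding probe differed by -0.79 (adjusted p = 0.0194, limma) with no overlap, and the 3′ end probe by -0.03 (95% interval -0.52 to 0.46). A difference between neutrons and x-rays in either gene therefore depends on the probe. The share of all genes without overlap between these 2 groups was not counted, and 40.1% had an unadjusted p below 0.05 by limma. At 15% the 3′ end probe of Bcl2l1 was 0.98 above x-rays (95% interval 0.13 to 1.82, adjusted p = 0.123, limma). It was 1.36 above, and called, when the last session was left out, whose 15% array was the lowest of its group.

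Further members of the family and the steps downstream were counted over lists of known genes. Over all genes, 29.8%, 23.1%, 29.1%, 24.8% and 36.6% were called against controls for x-rays, 5%, 15%, 25% and neutrons. Of 9 other BCL2 family genes tested, 2 rose and 2 fell after x-rays, 1 fell after 5%, 2 rose and 1 fell after 15%, 1 rose and 1 fell after 25%, and 2 rose and 1 fell after neutrons. Bbc3 was well above background on all 36 arrays but was not among the genes tested, so no change is given for it. Bnip3l encodes NIX, which removes mitochondria from maturing red cells, and it rose by 1.41 after x-rays, 1.51 at 15% and 2.15 after neutrons. Its 1.09 at 5% and 0.97 at 25% were not called. With quantile normalization its x-ray change was 0.57 and was not called. Bmf, a BH3-only gene, fell by 1.70 after x-rays. Its difference was -0.05 after neutrons. In the mixed fields Bmf was lower without being called. Over 4 scalings it differed by -1.11 to -0.95 at 5%, -0.76 to -0.57 at 15% and -0.88 to -0.74 at 25%. Bcl2l12 fell after x-rays, 15% and 25%, with log2 fold-changes of -1.32, -1.07 and -1.199. Its -0.97 at 5% and -0.84 after neutrons were not called. Of 4 scalings, it was among the genes tested only with median centring. The other calls were Bcl2l15, higher after x-rays, 15%, 25% and neutrons, and Bcl2l14, lower at 5% and after neutrons, both faint. Bcl2l15 was well above background on 0 control and 0 neutron arrays and Bcl2l14 on 3 control, 0 of the 5% and 0 neutron arrays, so no fold is given for them. The median log2 fold-change of the 9 was -0.46, -0.27, -0.28, 0.08 and -0.05 in the same order of exposures.

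Of 11 genes tested for caspase activation after the mitochondrion has opened, 1 rose and 2 fell after x-rays, 2 rose and 2 fell after each mixed field, and 1 rose and 4 fell after neutrons. The medians were -0.69, 0.04, -0.25, 0.05 and -0.32. Birc5 encodes survivin, which has a known role in cell division besides inhibiting apoptosis, and it rose by 2.39, 3.00, 3.07, 2.76 and 1.55. Birc3, an inhibitor of apoptosis, fell after all 5 exposures, with log2 fold-changes of -2.05, -1.97, -2.13, -2.27 and -1.40. Its relative Birc2 fell after x-rays and the mixed fields, with log2 fold-changes of -2.03, -2.21, -2.18 and -2.12, and differed by -0.32 after neutrons (adjusted p = 0.29, limma). Cycs, which encodes cytochrome c itself, rose by 1.75, 1.97 and 1.95 at 5%, 15% and 25%. Over 4 scalings it was higher by 0.78 to 1.16 after x-rays and 0.44 to 0.71 after neutrons. Each was called in 2 of the 4, and not with median centring. Diablo, Endog and Aifm1, further proteins that leave the opened mitochondrion, fell after neutrons, with log2 fold-changes of -0.73, -1.23 and -0.70. At an unadjusted p below 0.05 by limma, Diablo was lower after x-rays and each mixed field too, and Aifm1 after x-rays. Such a p was met by 52.1% to 64.1% of all genes. At 25% Diablo was called in 3 of 4 scalings, though not with median centring.

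Of 6 genes tested for the death receptor pathway, Ripk1 alone was called against controls, higher by 1.37 at 15%. In each exposure 1 to 2 of the 6 had an unadjusted p below 0.05 by limma, beside 52.1% to 64.1% of all genes. The medians of the 6 were -0.46, 0.15, 0.39, 0.33 and 0.08. Of 10 genes of the p53 axis, 1 rose and 2 fell after x-rays, 2 rose and 1 fell after 5%, 4 rose and 1 fell after 15%, 5 rose and 1 fell after 25%, and 1 rose and 1 fell after neutrons. Their medians were -0.03, 0.68, 0.70, 0.88 and -0.07. Cdkn1a, the cell-cycle inhibitor p21, rose by 2.25, 2.75, 2.82, 3.12 and 1.19, while Trp53 itself fell, with log2 fold-changes of -1.39, -1.63, -2.11, -1.495 and -1.35. Mdm2, the ligase that degrades p53, rose by 1.17, 1.496 and 1.19 in the mixed fields. After x-rays it was higher by 0.82 to 1.17 over 4 scalings, called in 3 of them and not with median centring. After neutrons it was higher by 0.32 to 0.58, called in 2 of the 4 and not with median centring. Centring on the 75th percentile changed the counts of the p53 axis, to 4 higher and 2 lower after x-rays and 4 higher and 1 lower after neutrons, of 8 tested.

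Of 6 NK-cell markers 0 were called against controls. In each exposure 0 to 2 had an unadjusted p below 0.05 by limma, beside 52.1% to 64.1% of all genes. Of 7 neutrophil markers, Csf3r alone was lower, at 15%, 25% and after neutrons, with log2 fold-changes of -1.01, -0.97 and -0.995. Among 4 genes of other tissues tested, Ins2 was higher after neutrons, by 0.90.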

How the data were processed

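Per the file headers, the authors deposited linear scanner intensities from Agilent Feature Extraction 12.0.2, corrected for background array by array, with no scaling across arrays. They also deposited a table of log2 expression values, already normalized and filtered to 14216 probes besides controls, which was used as an alternative. From the intensities, log2(processed signal) was averaged over the uniform spots of a probe and centred on each array's median. Probes had to be significant and uniform on over 75% of arrays and at least 1.5-fold from their median on at least 20% of arrays, and the brightest probe stood for a gene. Groups came from the sample titles. Replicates were separate mice, so p-values measure the spread between mice and arrays. Pairs of groups were tested with limma 3.58.1 in R 4.3.3 on their 12 arrays without covariates, by the filters and thresholds of the study's methods. In data simulated for x-rays against controls over 15085 genes, 20 of 100 genes changed by 1 and 77 of 100 changed by 2 on the log2 scale were recovered. The other 14885 genes were left unchanged there, whereas 29.8% of genes were called in the real comparison. The adjusted threshold was therefore harder to pass in the simulation.

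All members and all their probes are given. From each other list, at most 6 genes are named, those called in the most exposures, besides genes making up a count of 5 or fewer, which were chosen after their values were seen. For likeness, the 3 genes with the highest within-group correlation are given. The members and lists were chosen with earlier results of these data known. Alternatives covered scaling, background correction, filters, probe choice, threshold, fit, slide and scan session, replicate block and leaving out each array. Leaving out the last session, and normexp without spots over 20 units below local background, were added after seeing the data. Probe positions are those of the array design (mm9). Depth is not defined for arrays, and their number limits the precision.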

Additional observations from a re-analysis of the deposited data

Results flagged for a closer look

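Among 72 combinations of a member's probe and a group of 6 arrays, 7 held an array far from the rest, measured as its gap to the nearest array divided by the range of the group. Chance gives about 1 in 20. For Bcl2l1 at the 3′ end probe, x-ray replicate 1 was lowest at 12.81, with the next array at 13.42 (gap over range 0.736). It was also lowest of its group in the mean of the red-cell markers, at 9.78, and highest in B-cell markers, at 4.16 with the others at 1.29 to 2.75. In the same probe, 25% replicate 5 was highest at 14.64, with the next at 13.57 (0.711), and neutron replicate 6 was highest at 14.23, with the next at 13.96 (0.683). At the coding probe, 15% replicate 3, the array of the last scan session, was lowest at 6.94, with the next at 7.83 (0.629). For Mcl1 at the brighter probe, 25% replicate 5 was lowest at 7.97, with the next at 8.43 (0.748), so that this array was highest in Bcl2l1 and lowest in Mcl1. It was highest in red-cell markers as well, at 11.29 with the others at 9.70 to 10.43. For Bad at the 3′ end probe, 5% replicate 3 was highest at 6.37, with the next at 5.55 (0.631), and 15% replicate 1 was lowest at 5.03, with the next at 5.69 (0.663). No cause was tested for any of them. No difference between 2 exposures was called for a member.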

How the results depend on the processing

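Of 1878 member fold-changes recomputed, none that was called reversed, and 128 that were not called changed sign. The x-ray count of 2 members against controls became 1 with 75th-percentile centring, the mean over a gene's probes, the slide block and without the last session, 0 with normexp and 4 with normexp without the far spots. The 5% count of 1 became 2 with quantile normalization, 3 with that normexp, the deposited table, adjusted p alone or one model, and 0 with normexp and the slide or session block. The 15% count of 1 became 2 with quantile normalization, that normexp, probes well above background, no fold filter, every probe, the deposited table or one model, 4 with adjusted p alone, and 0 with the slide or session block. The 25% count of 1 became 2 with quantile normalization, 4 with adjusted p alone and 0 with normexp. The neutron count of 3 became 1 with both other centrings and 0 with normexp. Between exposures, counts of 0 became 1 for 15% against x-rays without the last session, 1 for neutrons against x-rays with both other centrings or one model and 3 with adjusted p alone, and 1 for neutrons against 25% with normexp without the far spots.

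The planned normexp fit was set off by a few spots far below background: 17 of 36 arrays had one, at most 21 of 44397 spots, and array medians ran from 69.9 to 1661, against 69.6 to 110 without them. Bcl2l1 missed the test against controls only there and, at 5% and 15%, with the slide or session block, whose value rests on 1 array of each. Leaving out 1 array gave 1 to 2 members for x-rays, 5% and 15%, 1 for 25%, 2 to 3 for neutrons, and 0 to 1 for 15% and for neutrons against x-rays. The 15% change came from replicates 1, 3 and 4, the 5% change from replicate 1, the 15% against x-rays from 15% replicate 3, and neutrons against x-rays from x-ray replicate 1.

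Replicate numbers did not pair the samples: same-numbered residuals of the groups correlated at a mean of 0.037, against -0.0062 for other numbers. With the replicate block 1 member was called after x-rays and 1 after neutrons, Bcl2l1 in both. Centring on the 75th percentile moved the median of all genes from -0.11 to 0.44 after x-rays and from -0.12 to 0.30 after neutrons, and the share of higher calls from 43.3% to 62.6% and from 44.0% to 62.2%. Bcl2 was not tested under either other centring, where it failed the fold filter. A session block could not be fitted for 25% or neutrons against controls or x-rays, nor for neutrons against 25%.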
